A study of Homo sapiens with 12 samples.

Results

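The comparison described here sets the siRNA s18076 against the siRNA s18075, both directed at MED26, without any control array in the fit. Its members are 6 of the 12 arrays of the series, 3 with each siRNA, and the 19775 genes that have a probe set naming 1 gene, each read from its brightest probe set over all 12 arrays. The cells were HEK293T, an established line from human embryonic kidney that expresses the large T antigen of SV40. They were transfected with 25 nM of siRNA, and total RNA was hybridised to Affymetrix arrays after 48 hours. The other arrays, 3 with the MED26 siRNA s18074 and 3 with non-targeting siRNA, are used below only as levels, with no test. The labels of the control arrays name more than 1 non-targeting siRNA, while the protocol names 1. Both groups compared received an siRNA against the same gene in the same line, and the MED26 level also differed between the groups, so the identity of the siRNA and the depth of MED26 loss cannot be told apart. The labels give replicate numbers and do not state separate cultures. The p-values given below therefore rest on array-to-array spread that may be technical.

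Mediator is a large complex that carries signals from DNA-bound transcription factors to RNA polymerase II. MED26 is a subunit of its middle part, and its N-terminal domain recruits elongation factors and TFIID to the promoter. A small interfering RNA guides Argonaute to a matching messenger RNA, which is cleaved, and an siRNA can also lower other messengers that pair with part of it. Short siRNAs of different sequence against the same gene are therefore compared with each other to see which changes they do not share.

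All values are log2 intensities, and every difference is the mean with s18076 minus the mean with s18075, with its standard error from limma's fit and n = 3 arrays in each group. A gene is called where limma's moderated test gives, after Benjamini-Hochberg adjustment across the 19775 genes, a p under 0.05. Array medians over all probe sets lay between 72.3 and 73.8 on the linear intensity scale. The 2 replicate 1 arrays stood apart from the rest: their deviations from their group means correlated at 0.392 across genes, against 0.131 for the replicate 2 arrays and 0.051 for the replicate 3 arrays. For this reason counts are also given on replicates 2 and 3 only.

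MED26, the common target, differed between the siRNAs. Its arrays read 9.41, 9.16 and 9.28 with s18075 and 8.8, 8.79 and 8.73 with s18076. The groups did not overlap, and every s18076 array was lower. The difference was -0.51 ± 0.07 (95% interval -0.68 to -0.34, limma adjusted p = 0.00452), which left the s18076 arrays at 70.1% of the s18075 signal. The exact two-sided permutation test on this gene alone gave p = 0.1, the smallest that the 20 splits of 6 arrays allow. The s18074 arrays averaged 8.75 ± 0.05 (SD, n = 3) and the controls 9.85 ± 0.02 (SD, n = 3), so s18076 lay near s18074 and s18075 lay between them and the controls. MED26 has 2 further, dimmer probe sets. The first gave -0.60 ± 0.09 (limma adjusted p = 0.00939 over all probe sets) and the second, the dimmest, gave 0.04 ± 0.16 (adjusted p = 0.931). In the mean of all 3 probe sets the difference was -0.356 and the call was lost (adjusted p = 0.0699).

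Over all genes, 1715 of 19775 were called (8.67%). Of these 1031 were higher with s18076 (5.21% of all genes) and 684 were lower (3.46%). Most differences were small: the median size of a called difference was 0.37, 1316 called genes differed by less than 0.5, 37 were higher by at least 1 and 20 were lower by at least 1. In all 1715 called genes the 3 arrays of the siRNAs did not overlap, where 28.6% of all genes have groups that do not overlap. Calls were more frequent in brighter genes, at 8.12% higher and 5.2% lower among the brightest 60%. Replicates 2 and 3 alone called 1032 genes, 928 of them among the 1715. Each fit without 1 array called fewer genes than the 6 arrays, and such a fit also has fewer degrees of freedom. The count was 1151 without s18075 replicate 1, 900 without s18075 replicate 2 and 880 without s18075 replicate 3. It was 1392 without s18076 replicate 1, 974 without s18076 replicate 2 and 959 without s18076 replicate 3. A core of 747 genes, 480 higher and 267 lower, was called with all 6 arrays and without each array in turn.

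**Figure D1:**
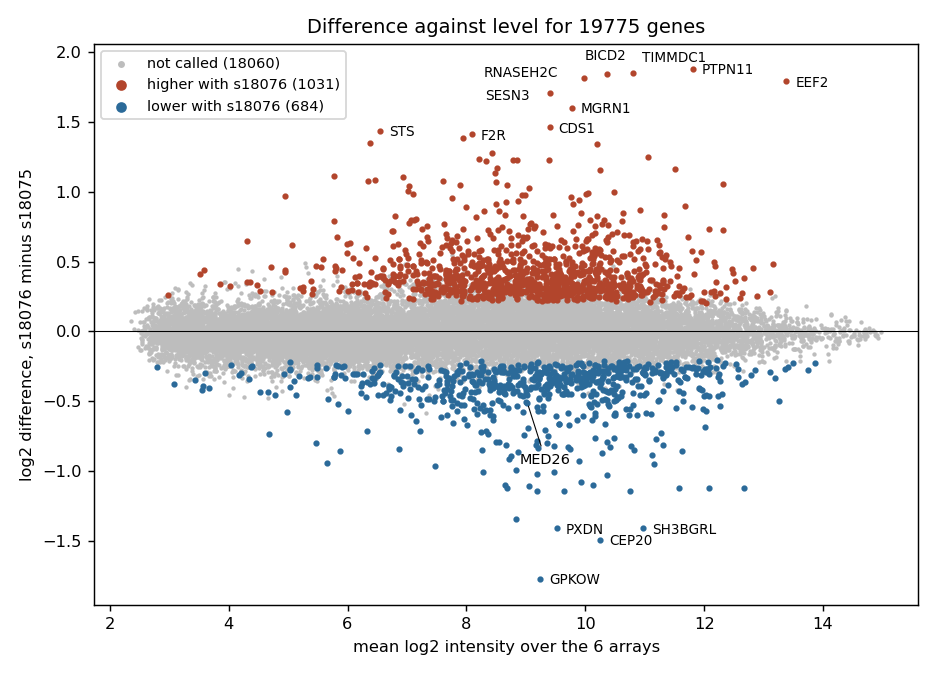
Log2 difference (s18076 minus s18075, y axis) against mean log2 intensity over the 6 arrays (x axis) for the 19775 genes, each point 1 gene, coloured where limma called it (1031 higher, 684 lower). The genes with the largest differences, PTPN11 at the top and GPKOW at the bottom, and MED26 at -0.51, are named.

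The s18075 and s18076 means of called genes were also set beside the s18074 and control means. Of the 37 genes higher by at least 1, the s18075 mean was the farther from both the s18074 and the control mean in 32. In 2 of the 37 the s18076 mean was the farther, and in 3 the order was mixed. Among the 20 genes lower by at least 1, the s18076 mean was the farther in 18, and 2 were mixed. Among all 1715 calls the s18075 mean was the farther in 589, the s18076 mean in 598, and 528 were mixed. Split by direction, the s18075 mean was the farther in 453 of the 1031 genes called higher, and the s18076 mean in 266. Of the 684 called lower, the s18076 mean was the farther in 332, and the s18075 mean in 136. Where the lower of the 2 siRNA means is the farther, it lies below the s18074 and control means by construction. The genes were also chosen by the difference between these 2 means. These counts are a description, with no test.

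The 28 genes with the largest differences are given by the known role of their product, an order made after the values were seen and not a theme. They were taken from called genes whose groups do not overlap, so that separation is no finding about them. PTPN11 encodes SHP2, a phosphatase that passes receptor tyrosine kinase signals on to RAS and ERK. It read 10.88, 10.88 and 10.84 with s18075 and 12.66, 12.81 and 12.76 with s18076. The s18076 arrays lay at the level of s18074 (mean 12.73) and of the controls (12.79), and the s18075 arrays lay well below. The difference was 1.88 ± 0.06 (limma adjusted p = 7.28e-06), the largest of all genes in this direction. Of 5 further PTPN11 probe sets 3 were called in the same direction, at 0.78, 1.26 and 2.00, and the others were dim at levels of 4.49 and 4.14. F2R, the thrombin receptor PAR1, read 7.4, 7.28 and 7.47 against 8.45, 9.01 and 8.92, a difference of 1.41 ± 0.14 (adjusted p = 0.000659). Its first s18076 array was lower than the other 2, though above all s18075 arrays. SESN3, a stress-induced sestrin that restrains mTORC1, read 8.64, 8.56 and 8.46 against 10.12, 10.35 and 10.32, a difference of 1.71 ± 0.08 (adjusted p = 2.02e-05). Of its 6 further, dimmer probe sets 1 was called, at 0.38. The brightest of them, at a level of 7.19, gave 0.16 and was not called. With the probe sets averaged the SESN3 difference was 0.51. In the opposite direction PPM1B, a metal-dependent protein phosphatase, read 10.67, 10.67 and 10.68 with s18075 and 9.56, 9.6 and 9.57 with s18076, a difference of -1.10 ± 0.05 (adjusted p = 2.02e-05). A further bright PPM1B probe set, at a level of 9.64, gave 0.04 ± 0.22 and was not called, and with the probe sets averaged the PPM1B difference was -0.53. The kinase gene UHMK1 gave -1.12 ± 0.05. Its control mean (11.97) lay between s18076 and s18075, and s18074 (12.60) lay with s18075.

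EEF2, the elongation factor that moves the ribosome along the messenger, read 12.62, 12.43 and 12.42 with s18075 and 14.25, 14.29 and 14.29 with s18076. The s18076 arrays were among the brightest of the array, as were s18074 (14.33) and the controls (14.30), and s18075 alone was low. The difference was 1.79 ± 0.07 (limma adjusted p = 1.18e-05), and the further EEF2 probe set gave 2.21. RNASEH2C, a subunit of the enzyme that removes ribonucleotides from DNA, read 8.95, 9.13 and 9.15 against 10.82, 10.87 and 10.98. Its difference was 1.81 ± 0.08 (adjusted p = 1.53e-05), whereas a further probe set of similar brightness gave 0.36, also called. HNRNPLL, a splicing regulator, was higher with s18076 by 1.34 ± 0.06. On the other side stood GPKOW, a spliceosome component, with 10.15, 10.08 and 10.14 against 8.42, 8.25 and 8.37. Its s18076 arrays lay below s18074 (9.85) and the controls (9.98). The difference of -1.77 ± 0.07 (adjusted p = 1.18e-05) was the largest in this direction. NSA2, needed for the maturation of the large ribosomal subunit, read 13.18, 13.26 and 13.24 against 12.18, 12.07 and 12.08. Its difference was -1.12 ± 0.06 (adjusted p = 4.25e-05), with s18074 and the controls at the s18075 level (13.27 and 13.20).

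BICD2, an adaptor that links cargo to dynein, read 9.37, 9.5 and 9.44 with s18075 and 11.12, 11.32 and 11.39 with s18076, a difference of 1.84 ± 0.08 (limma adjusted p = 1.79e-05). Of its 3 further probe sets 2 were called, at 1.48 and 1.76. INVS, which encodes the ciliary protein inversin, read 7.28, 7.21 and 7.28 against 8.58, 8.66 and 8.69, a difference of 1.38 ± 0.06 (adjusted p = 1.53e-05). Its s18076 arrays lay with s18074 (8.57) but below the controls (9.04). SYBU, a kinesin adaptor, was higher by 1.28 ± 0.06. CEP20, a centrosomal and ciliary gene, read 10.97, 10.99 and 11.02 with s18075 and 9.55, 9.44 and 9.52 with s18076, a difference of -1.49 ± 0.06 (adjusted p = 1.18e-05). The further CEP20 probe set gave -2.03, and s18074 (11.02) and the controls (11.03) lay at the s18075 level. CCDC91 gave -1.12 ± 0.09 and REEP4, which clears endoplasmic reticulum from mitotic chromosomes, gave -1.10 ± 0.07.

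TIMMDC1, an assembly factor of mitochondrial complex I, read 9.85, 9.91 and 9.87 with s18075 and 11.7, 11.72 and 11.74 with s18076. The difference was 1.85 ± 0.05 and had the lowest adjusted p of all genes (limma, 6.39e-06). CDS1, which makes CDP-diacylglycerol for phospholipid synthesis, was higher by 1.46 ± 0.06, and the ubiquitin ligase gene MGRN1 by 1.60 ± 0.07. STS, the steroid sulfatase, was dimmer and more spread, with 5.8, 5.59 and 6.1 against 7.07, 7.34 and 7.4, a difference of 1.44 ± 0.14 (adjusted p = 0.000591). ENPP5, a phosphodiesterase family gene, read 5.91, 5.51 and 5.71 against 6.92, 7.09 and 7.17. Here the controls (5.91) and s18075 were alike and low, and s18074 (6.54) lay between them and s18076. The difference was 1.35 ± 0.11 (adjusted p = 0.000277).

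Of the genes lower with s18076, ELOVL5 elongates polyunsaturated fatty acids. It read 12.23, 12.1 and 12.08 with s18075 and 11.01, 11.08 and 10.97 with s18076, a difference of -1.12 ± 0.07 (limma adjusted p = 5.81e-05). CDO1, which oxidises cysteine, read 9.53, 9.51 and 9.46 against 8.22, 8.08 and 8.17, a difference of -1.34 ± 0.06 (adjusted p = 1.84e-05). The zinc transporter gene SLC30A6 gave -1.14 ± 0.06. In these 3 genes all s18076 arrays lay below all s18075 arrays, as the choice of genes required. Their s18076 means lay below s18074 and the controls. PXDN, a peroxidase that crosslinks collagen IV, read 10.28, 10.19 and 10.21 against 8.92, 8.83 and 8.71, a difference of -1.41 ± 0.07 (adjusted p = 2.26e-05), and its further probe set gave -1.08. FSTL1, a secreted follistatin-like glycoprotein, gave -1.14 ± 0.07. RECK, a membrane-anchored inhibitor of matrix metalloproteinases, read 9.71, 9.83 and 9.73 against 8.35, 8.74 and 8.75. Its control mean (8.70) was at the s18076 level and its s18074 mean (9.49) near s18075, so that here the siRNA away from the controls was s18075. The RECK difference was -1.14 ± 0.11 (adjusted p = 0.000627). SH3BGRL, a small thioredoxin-fold protein, read 11.62, 11.71 and 11.69 against 10.27, 10.26 and 10.27, a difference of -1.41 ± 0.06 (adjusted p = 1.18e-05), and its further probe set gave -0.51.

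These 28 genes, 14 in each direction, kept their call in each of the 19 alternatives run for single genes (18 for ENPP5), each left-out array included. The stricter thresholds were not among these alternatives. Of the 28, 22 had a further probe set, 14 had one called in the same direction and 0 had one called in the opposite direction over all probe sets at the same threshold. In the other 8, CCDC91, CDO1, ELOVL5, F2R, INVS, PPM1B, RECK and SLC30A6, no further probe set was called. Besides PPM1B, the brightest further probe sets were those of SLC30A6 (level 8.64, difference -0.14) and RECK (level 8.07, difference 0.02). Among the 14 with a further call, that call could be much smaller, as in SESN3 (0.38 against 1.71). Over all called genes 1187 had a further probe set. In 321 of them it was called in the same direction, and in 4 in the opposite direction. For the other genes the call stands on the brightest probe set.

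**Figure D2:**
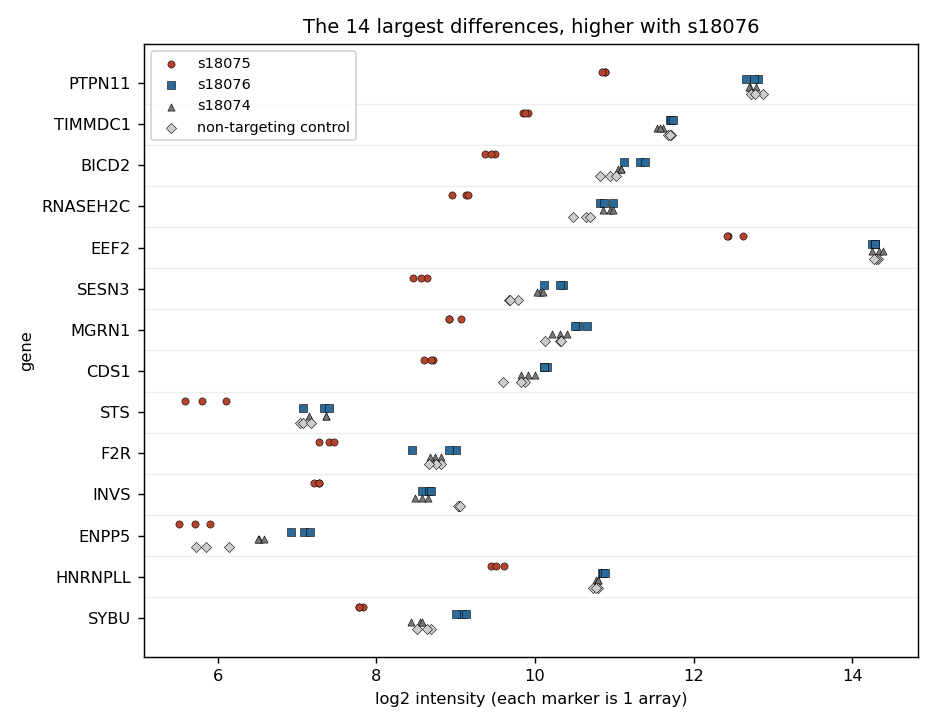
Log2 intensity (x axis) of the 14 genes with the largest differences in favour of s18076, each marker 1 array of s18075, s18076, s18074 or the non-targeting control. The s18075 arrays lie to the left of the s18076 arrays in all 14, as the choice of genes required. In ENPP5 the s18075 arrays lie at the control level (mean 5.91).

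**Figure D3:**
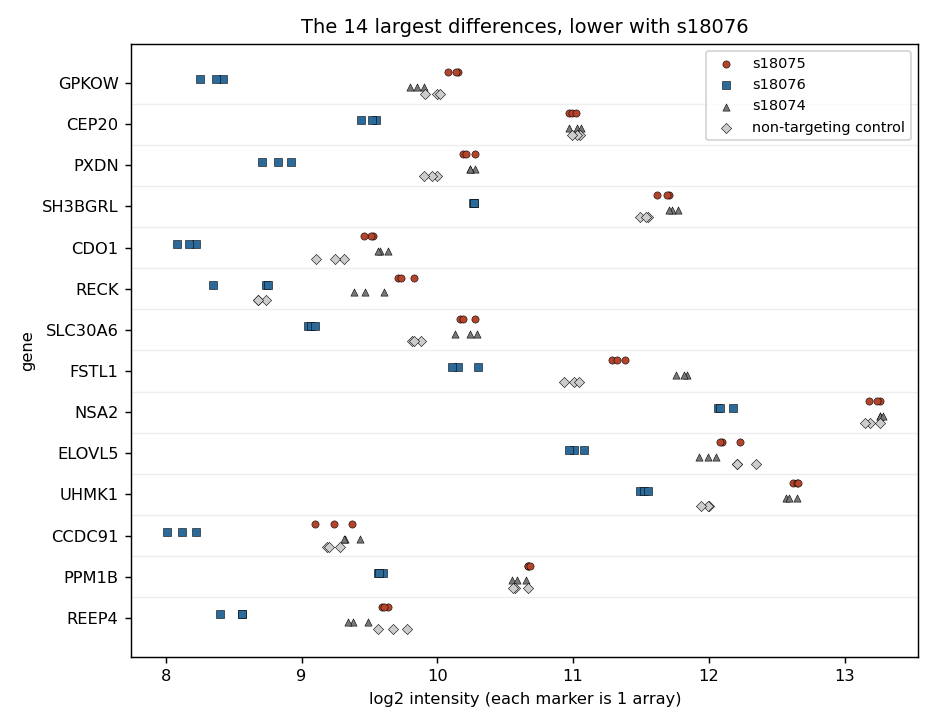
Log2 intensity (x axis) of the 14 genes with the largest differences in the other direction, each marker 1 array. The s18076 arrays lie to the left of the s18075 arrays in all 14, as the choice of genes required. In RECK the s18076 arrays lie around the control mean of 8.70.

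Gene lists were then used to describe functions. For scale, the median difference over all genes was -0.006, with the 5.21% higher and 3.46% lower given above. Among the brightest 60% of genes the shares were 8.12% and 5.2%. Many lists were brighter than all genes, such as the translation factors (median level 12.0 against 7.46). Their shares are to be read beside both scales. A list is described by its counts and median, with no test of the list. Of 120 list members named below in addition to the 28, 56 kept their call without each array in turn, and 49 lost it without at least 1 array. The other 15, among them DUSP6, TRIB1, CEBPB, GTF2E1, POLR2F, TAF1D and NEFL, were called with all 6 arrays but in none of the 6 fits without 1 array. With the probe sets of a gene averaged, 41 of the 120 were not called.

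The ERK pathway list holds SHP2, its docking partners and the feedback genes that ERK induces. Of 33 measured members 6 were called higher (18.2%) and the other 27 were not called, with a median of 0.104. PTPN11 itself, for whose product the list is named, is 1 of the 6 and has the largest difference in this direction. The list was chosen with earlier results of these data known, so its share is no independent support. ETV5, an ETS transcription factor induced by ERK, read 5.68, 5.77 and 5.71 with s18075 and 6.36, 6.27 and 6.43 with s18076 (0.63 ± 0.06, limma adjusted p = 0.000841). SPRY2, a feedback inhibitor of receptor tyrosine kinases, read 8.96, 8.92 and 8.91 against 9.36, 9.39 and 9.34 (0.43 ± 0.05, adjusted p = 0.00233). In both genes the groups lay apart, as in every called gene, and they did so in 16 of the 33 measured members. Their control means, 5.69 for ETV5 and 8.88 for SPRY2, were at the s18075 level. SPRED2, another inhibitor of this pathway, gave 0.58 ± 0.09, and CCND1, which encodes cyclin D1, gave 0.53 ± 0.08. DUSP6, the ERK phosphatase, read 5.98, 5.84 and 5.97 against 6.18, 6.33 and 6.18. Its difference of 0.30 ± 0.07 (adjusted p = 0.0347) lost its call without any 1 of the 6 arrays. Its dimmer further probe sets gave 0.67 (adjusted p = 0.0487) and 1.11 (adjusted p = 0.0119) over all probe sets, and their mean with the first gave 0.69 (adjusted p = 0.00932). With the probe sets averaged ETV5 (0.24, adjusted p = 0.0837), SPRED2 (0.17, adjusted p = 0.115) and CCND1 (0.27, adjusted p = 0.101) were not called. Of the partners that were not called, GRB2 gave 0.06 ± 0.06, GAB1 gave -0.06 ± 0.06 and SOS1 gave 0.15 ± 0.06. SPRY2, DUSP6 and these 3 partners were named after their values were seen. Without 1 array 5 members were called higher in each case, and on replicates 2 and 3 also 5.

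Immediate-early genes are switched on within minutes by growth factors and stress, many of them through the serum response factor SRF. Of 37 measured, 7 were called higher with s18076 (18.9%), 1 was lower and 29 were not called, with a median of 0.086. SRF read 8.62, 8.41 and 8.56 with s18075 and 9.34, 9.13 and 9.19 with s18076, a difference of 0.69 ± 0.08 (limma adjusted p = 0.00167). EGR1, a zinc finger factor and a classical SRF target, read 7.25, 6.96 and 7.01 against 7.53, 7.56 and 7.62, a difference of 0.50 ± 0.08 (adjusted p = 0.00892). SRF was low with s18075 alone, since s18074 averaged 9.15 and the controls 9.19, whereas the EGR1 controls, at 7.10, were at the s18075 level. The further probe sets of SRF (0.28) and of EGR1 (0.21 and 0.18) were dimmer and not called. The AP-1 genes JUND and JUNB gave 0.59 ± 0.08 and 0.34 ± 0.07, and the stress factor ATF3 gave 0.58 ± 0.06. With the probe sets averaged JUND (0.29, adjusted p = 0.186) and ATF3 (0.25, adjusted p = 0.19) were not called. The other 2 higher were ID1 (0.42 ± 0.10) and TRIB1 (0.23 ± 0.05), and the TRIB1 call was lost without any 1 array. KLF10, a TGF-beta-induced repressor, was the member that was lower, at -0.59 ± 0.08 (adjusted p = 0.00435). Neither FOS (-0.12 ± 0.11) nor CCN2 (-0.37 ± 0.10, adjusted p = 0.0593) was called. EGR1, JUNB, ID1, TRIB1, FOS and CCN2 were named after their values were seen. Between 4 and 6 members were called higher without 1 array. The count was 4 without s18075 replicate 3 and 4 without s18076 replicate 2, and on replicates 2 and 3 alone 6 were higher and 2 lower.

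The promoters of SRF and EGR1 are shown because these were the 2 of 6 called-higher immediate-early genes with a promoter in the RefSeq table (GRCh38.p14) that hold a CArG box, the site that SRF binds. The 250 bases before the start of transcription are given 5′ to 3′ on the gene's strand, with the matches in capitals. The SRF window is chr6:43171019-43171268 on the plus strand, with matches starting 30 and 10 bases before the start. The EGR1 window is chr5:138465229-138465478 on the plus strand, with matches starting 105 and 83 bases before the start.
SRF: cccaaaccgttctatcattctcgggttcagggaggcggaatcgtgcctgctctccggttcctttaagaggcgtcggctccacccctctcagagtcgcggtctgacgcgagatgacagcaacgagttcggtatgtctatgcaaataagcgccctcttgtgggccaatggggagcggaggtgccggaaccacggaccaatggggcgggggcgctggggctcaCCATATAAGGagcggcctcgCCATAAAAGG
EGR1: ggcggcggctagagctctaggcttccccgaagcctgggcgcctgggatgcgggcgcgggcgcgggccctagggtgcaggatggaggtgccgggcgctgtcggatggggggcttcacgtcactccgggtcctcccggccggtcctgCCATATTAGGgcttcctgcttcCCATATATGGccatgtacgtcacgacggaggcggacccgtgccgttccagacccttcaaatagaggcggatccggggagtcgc

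Both strands were searched for the CArG box. It was found in 312 of 27305 promoters (1.14%), in 176 of the 15384 promoters of genes tested (1.14%) and in 2 of 27 immediate-early promoters, SRF and EGR1 themselves. The search was chosen after the values were seen, and a match is a description of these letters, not of a bound site. JUND, JUNB, ATF3 and ID1, also higher, have no match in this window.

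The integrated stress response slows general translation and induces ATF4 target genes for amino acid supply and redox balance. Of 38 measured members 7 were called higher (18.4%) and the other 31 were not called, with a median of 0.064. DDIT4, an inhibitor of mTORC1, read 9.61, 9.51 and 9.53 with s18075 and 10.67, 10.48 and 10.48 with s18076, a difference of 0.99 ± 0.07 (limma adjusted p = 0.000153). The s18074 (10.06) and control (10.17) means lay between the siRNAs. AARS1, the alanyl-tRNA synthetase, read 10.71, 10.76 and 10.75 against 11.22, 11.03 and 11.08, a difference of 0.37 ± 0.07 (adjusted p = 0.0121). ATF3 was higher as given above, and VLDLR, a lipoprotein receptor, gave 0.52 ± 0.11. The cystine transporter gene SLC7A11 gave 0.39 ± 0.08, DDIT3, which encodes CHOP, gave 0.30 ± 0.06 and CEBPB, a bZIP factor, gave 0.25 ± 0.06. SLC7A11 was far below its control mean of 9.63 with both siRNAs, with 8.13, 8.01 and 8.03 against 8.41, 8.58 and 8.33. Members of amino acid synthesis were not called: ASNS, the asparagine synthetase, gave -0.16 ± 0.07, PSPH -0.14 ± 0.08 and CTH -0.14 ± 0.06. ATF4 gave 0.26 ± 0.07 (adjusted p = 0.0547) and was not called. AARS1, DDIT3, CEBPB and the 4 members just given were named after their values were seen. On replicates 2 and 3 only 2 members were called higher, and without 1 array between 3 (without s18076 replicate 2) and 6. The count was 4 without s18075 replicate 2 and 4 without s18075 replicate 3.

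The 8 letters TGATGNAA, a core of the ATF4 element, were searched on both strands of the same promoters. They stood in 870 of 27305 promoters (3.19%), in 355 of 15384 promoters of genes tested (2.31%) and in 4 of 32 promoters of the stress response list. Among the 6 called-higher members with a promoter in the table they were in ATF3 and AARS1.

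In the Mediator list, 29 subunits other than MED26 were measured, of which 2 were higher, 1 was lower and 26 were not called (median 0.053). CDK19, a kinase of the Mediator kinase module, read 8.7, 8.66 and 8.63 with s18075 and 9.24, 9.23 and 9.2 with s18076 (0.56 ± 0.06, limma adjusted p = 0.000684). MED14, the backbone that joins the modules, read 9.98, 9.93 and 10.07 against 9.55, 9.55 and 9.53 (-0.45 ± 0.06, adjusted p = 0.00294). MED28 gave 0.35 ± 0.06 (adjusted p = 0.00685). The groups lay apart in these 3 subunits, as in every called gene. They lay apart in 10 of the 29 measured, against 28.6% of all genes. With the probe sets of a gene averaged neither MED14 nor MED28 was called.

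Among 40 RNA polymerase II subunits and initiation factors 5 were higher and 2 lower (median -0.019). GTF2E2, the beta subunit of TFIIE, read 10.08, 10.18 and 10.25 with s18075 and 9.36, 9.26 and 9.37 with s18076 (-0.84 ± 0.07, limma adjusted p = 0.000275). Its partner GTF2E1 gave 0.22 ± 0.06 in the opposite direction, a call lost without any 1 array. TAF10, a subunit of TFIID and SAGA, read 12.08, 11.93 and 11.88 against 12.83, 12.55 and 12.69 (0.73 ± 0.09, adjusted p = 0.00189). The TFIID subunits TAF4 (0.42 ± 0.06) and TAF7 (0.33 ± 0.07) and the polymerase subunit POLR2I (0.41 ± 0.06) were also higher, and POLR2F was lower (-0.26 ± 0.06). With the probe sets averaged TAF4 gave 0.14 (limma adjusted p = 0.217) and was not called. TAF7 was called in 1 of the 6 fits without 1 array. In those fits 3 or 4 members of this list were higher and 1 was lower, 3 in each case but those without s18076 replicate 1 or 2. Of 35 elongation factors 2 were lower, TCEA1, which encodes TFIIS (-0.57 ± 0.13, adjusted p = 0.0289), and HEXIM2, an inhibitor of P-TEFb (-0.32 ± 0.07), and the other 33 were not called (median 0.017). The TCEA1 arrays were spread, with 12.52, 12.12 and 12.29 against 11.97, 11.7 and 11.56, and the call was lost with the probe sets averaged. Without 1 array 0 or 1 elongation factor was called lower, 0 without s18075 replicate 1 or 3 or s18076 replicate 2.

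Histones package DNA, and p53 targets respond to its damage. Of 38 measured replication-dependent histone genes 3 were lower with s18076 and 35 were not called (median -0.089). H2AC6 read 8.2, 8.27 and 8.36 with s18075 and 7.58, 7.68 and 7.7 with s18076 (-0.63 ± 0.07, limma adjusted p = 0.00117). Its control mean was 7.18, below both siRNAs. H2BC11 (-0.33 ± 0.09) and H3C7 (-0.32 ± 0.07) were the others, and probe sets of histone genes can share signal between near-identical copies. Without 1 array between 1 and 4 histone genes were lower, 1 without s18075 replicate 2 or 3 or s18076 replicate 2, and 2 without s18076 replicate 3. H2BC11 and H3C7 were each called in only 1 of these 6 fits. Of 27 p53 targets 3 were higher and 5 lower (median -0.052). RRM2B, a ribonucleotide reductase subunit, gave 0.77 ± 0.08, TP53INP1 gave 0.52 ± 0.06 (0.11 and not called with the probe sets averaged) and GADD45A gave 0.32 ± 0.08. POLH, a translesion polymerase, gave -0.56 ± 0.08, the repair factor DDB2 -0.38 ± 0.08, SESN1 -0.33 ± 0.06, TP53I3 -0.29 ± 0.06 and the death receptor gene FAS -0.28 ± 0.06. Without s18076 replicate 1 the counts were 3 and 5, and without any other array 2 were higher and 1 or 2 lower. The p53 targets thus stood on both sides, and in TP53INP1 both siRNAs lay above the control mean of 8.20.

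In lipid metabolism the fatty acid elongases stood on both sides. Of 29 genes of fatty acid synthesis, elongation and desaturation 4 were higher and 2 lower (median 0.009). ELOVL6, which elongates saturated fatty acids, read 9.8, 9.83 and 9.74 with s18075 and 10.43, 10.53 and 10.69 with s18076 (0.76 ± 0.08, limma adjusted p = 0.00083), the reverse of ELOVL5. The desaturase gene SCD5 (0.43 ± 0.07, not called with its probe sets averaged), ELOVL2 (0.40 ± 0.08) and ELOVL7 (0.35 ± 0.06) were also higher, and GPAM, the first acyltransferase of triglyceride synthesis, was lower (-0.36 ± 0.06). Of 26 cholesterol and SREBP genes 3 were higher and 1 lower (median 0.056). INSIG1, which holds SREBP in the endoplasmic reticulum, read 9.95, 9.88 and 9.85 against 10.67, 10.73 and 10.59 (0.77 ± 0.06, adjusted p = 0.000313). Both siRNAs lay below the INSIG1 control mean of 11.43. MYLIP, a ligase that degrades the LDL receptor, gave 0.52 ± 0.09, the sterol carrier gene STARD4 0.38 ± 0.07 and the cholesterol exporter gene ABCA1 -0.38 ± 0.08. Without 1 array 2 to 4 cholesterol genes were higher and none was lower, except that 1 was lower without s18076 replicate 2.

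Of 38 glycolysis and hypoxia genes 6 were higher and 3 lower (median 0.062). ERO1A, an oxidase of disulfide formation, read 11.38, 11.19 and 11.2 with s18075 and 10.5, 10.39 and 10.32 with s18076 (-0.85 ± 0.08, limma adjusted p = 0.000465). The collagen prolyl hydroxylase subunits P4HA2 (-0.53 ± 0.09) and P4HA1 (-0.44 ± 0.07) were lower too. EPAS1, which encodes HIF-2 alpha, was higher by 0.61 ± 0.06, and the other 5 higher genes, PDK1, BNIP3L, ENO2, MXI1 and PFKP, were higher by 0.22 to 0.41. Those 5 were named after their values were seen. With the probe sets averaged P4HA2, P4HA1, EPAS1, PDK1 and PFKP were not called (-0.23, -0.13, 0.21, 0.18 and 0.09). The higher count fell without any 1 array. It was 1 without s18075 replicate 2, s18075 replicate 3 or s18076 replicate 3, and 2 without s18076 replicate 1 or 2. It was 4 without s18075 replicate 1, and the 3 lower genes were called each time. On replicates 2 and 3 alone the counts were 3 higher and 3 lower.

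Of 51 translation factors 4 were higher and 4 lower (median -0.019). EEF2 led, followed by GSPT2, a release factor, at 0.76 ± 0.08 and EIF5, which triggers GTP hydrolysis at the start codon, at 0.74 ± 0.13. EIF5A2 read 8.74, 8.82 and 8.76 with s18075 and 8.07, 8.14 and 8.2 with s18076 (-0.64 ± 0.06, limma adjusted p = 0.000655). The translation repressor gene EIF4EBP2 gave 0.36 ± 0.06, but its further bright probe set gave -0.17 and the average of its probe sets 0.01 (adjusted p = 0.95). The genes EIF2B3, EIF2S3 and DPH5, which modifies EEF2, gave -0.29 ± 0.06, -0.26 ± 0.06 and -0.25 ± 0.06. Without any 1 array other than s18076 replicate 1 1 translation factor was called lower. Of 49 ribosome biogenesis genes 1 was higher, DDX52 (0.64 ± 0.09), and 3 were lower, NIP7 (-0.32 ± 0.07), UTP14A (-0.25 ± 0.06) and NOL10 (-0.23 ± 0.05), with a median of -0.084. The count of lower ribosome biogenesis genes was 2 without s18075 replicate 1, 1 without s18076 replicate 2, and 0 without any other array or on replicates 2 and 3 alone. Of 7 measured snoRNA host genes TAF1D was lower (-0.29 ± 0.07), and of 59 spliceosome and SR protein genes GPKOW alone was called (medians -0.099 and -0.042).

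Of 65 dynein, centrosome and ciliary genes 5 were higher and 6 lower (median -0.021). Besides BICD2 and INVS, the dynactin subunits DCTN1 (0.52 ± 0.08) and DCTN3 (0.32 ± 0.06) and the BICD-like adaptor BICDL1 (0.49 ± 0.07) were higher. Besides CEP20, BICD1, the paralog of BICD2, was lower, with 7.86, 7.93 and 7.83 against 7.29, 7.26 and 7.23 (-0.62 ± 0.06, limma adjusted p = 0.000577). The centrin gene CETN3 gave -0.44 ± 0.07, and the ciliary transport genes BBS1, IFT27 and IFT52 gave -0.37 ± 0.06, -0.30 ± 0.07 and -0.29 ± 0.06. BICD1, CETN3 and these 3 were named after their values were seen. The paralogs BICD1 and BICD2 thus differed in opposite directions, BICD2 being low with s18075 and BICD1 low with s18076, though with the probe sets averaged BICD1 (-0.21, adjusted p = 0.0698), BICDL1 (0.22) and BBS1 (-0.11) were not called. Without 1 array 4 to 6 genes of this list were higher and 4 to 6 lower, and on replicates 2 and 3 alone 3 and 3. Of 47 complex I subunits and assembly factors 3 were higher, TIMMDC1, NDUFA11 (0.45 ± 0.07) and NDUFB10 (0.28 ± 0.06), and NDUFAF4 was lower (-0.33 ± 0.08), with a median of -0.027. Without 1 array 2 or 3 complex I genes were higher, and NDUFAF4 was called only without s18075 replicate 1. The dimmer further NDUFAF4 probe set gave -0.78 (limma adjusted p = 0.00379 over all probe sets), and the average of both -0.56 (adjusted p = 0.00734).

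Of 47 BMP, TGF-beta and WNT genes 5 were higher and 4 lower (median 0.016). LGR5, a receptor for R-spondins that strengthens WNT signals, read 6.31, 6.25 and 6.36 with s18075 and 5.44, 5.48 and 5.43 with s18076 (-0.86 ± 0.06, limma adjusted p = 0.000117). TGFBR2, the type II TGF-beta receptor, gave -0.42 ± 0.06, the ligase gene ZNRF3 -0.39 ± 0.08 and TCF7L2, a WNT effector, -0.29 ± 0.06. The ligand BMP2 read 6.77, 6.99 and 7 against 7.4, 7.5 and 7.53 (0.55 ± 0.08, adjusted p = 0.00452). Its control mean was 8.47, above both siRNAs. The decoy receptor BAMBI (0.42 ± 0.08), the WNT receptor FZD1 (0.36 ± 0.08), SMAD5 (0.33 ± 0.07) and the BMP receptor ACVR1 (0.32 ± 0.08) were higher. The higher count was 1 without s18075 replicate 2 or 3, 2 without s18075 replicate 1 or s18076 replicate 2 or 3, and 4 without s18076 replicate 1. The lower count was 2 without s18075 replicate 2 or 3 or s18076 replicate 3, 3 without s18076 replicate 1 or 2, and 5 without s18075 replicate 1.

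In the other stress lists, 3 of 31 endoplasmic reticulum chaperone genes were higher and 1 lower (median -0.033). DNAJC3, an inhibitor of the kinase PERK, read 9.85, 9.68 and 9.8 with s18075 and 10.57, 10.62 and 10.61 with s18076 (0.82 ± 0.06, limma adjusted p = 0.000226), though not in the mean of its probe sets. SDF2L1 gave 0.39 ± 0.07, ERO1B 0.29 ± 0.07 and the sensor ATF6 -0.31 ± 0.06. The further, dimmer ERO1B probe set gave -0.20 and was not called. The average of the ERO1B probe sets gave 0.05 (limma adjusted p = 0.723), and ERO1B was called in 1 of the 6 fits without 1 array. Of 27 NRF2, glutathione and iron genes 3 were higher and 2 lower (median 0.013). The drug and glutathione conjugate exporter ABCC1 gave -0.75 ± 0.07, NQO1 -0.29 ± 0.07, the iron exporter SLC40A1 0.64 ± 0.07 and ACO1 0.24 ± 0.06, beside SLC7A11. Of 22 heat-shock genes HSPB1 (0.54 ± 0.06) and HSPA2 (0.44 ± 0.06) were higher and DNAJB4 (-0.38 ± 0.08) was lower, with a median of 0. Of 38 interferon-stimulated genes the RNA sensor IFIH1 (0.79 ± 0.09) and IRF9 (0.33 ± 0.08) were higher and IFIT5 (-0.43 ± 0.07) was lower, with a median of 0.052. Without 1 array the counts of higher and lower genes ranged from 2 to 3 and 0 to 2 in the endoplasmic reticulum list, from 1 to 3 and 1 to 2 in the NRF2 list, and stood at 2 and 0 or 1 in the heat-shock list and at 1 and 1 in the interferon list. The NRF2 list had 1 higher without s18075 replicate 2 or 3 or s18076 replicate 2.

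The cell cycle lists held few calls. Of 42 G2 and M phase genes FOXM1, the transcription factor of this phase, was higher, with 10.47, 10.3 and 10.39 against 11.23, 11.01 and 10.99 (0.69 ± 0.08, limma adjusted p = 0.00183). HMMR, a spindle protein, was lower (-0.68 ± 0.09), and the other 40 were not called (median 0.041). Of 47 G1/S and replication genes RNASEH2C, CCND1 and CDK6 (0.23 ± 0.06) were higher and CCNE1 (-0.29 ± 0.06) was lower (median 0.013). Without 1 array 2 were higher, and 1 was lower only without s18076 replicate 1. Of 13 Argonaute and microRNA genes AGO4 (0.36 ± 0.07) and TNRC6B (0.36 ± 0.07) were higher and TNRC6C (-0.25 ± 0.06) was lower, with a median of 0.049. No gene of this list was called lower without any 1 array, and 1 or 2 were higher, 1 without s18075 replicate 2 or s18076 replicate 2 or 3. On replicates 2 and 3 alone 0 were higher and 0 lower. With the probe sets averaged TNRC6C gave -0.03 (adjusted p = 0.798) and AGO4 0.11 (adjusted p = 0.303). Of 41 REST-repressed neuronal genes STMN3 (0.41 ± 0.08) and KIF5A (0.36 ± 0.07) were higher and CELF5 (-0.36 ± 0.08), KIF5C (-0.23 ± 0.05) and NEFL (-0.22 ± 0.05) were lower, with a median of -0.003. With the probe sets averaged NEFL (-0.39) and CELF5 (-0.27) were called, and STMN3, KIF5A and KIF5C were not. Without 1 array 0 to 2 REST-repressed genes were higher and 0 lower, except that 1 was lower without s18076 replicate 3. None was higher without s18075 replicate 1 or s18076 replicate 3, and on replicates 2 and 3 alone 1 was higher and 0 lower.

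Limma called 0 of 53 cytosolic ribosomal protein genes and 0 of 27 proteasome genes, where 3 and 4 had an unadjusted p under 0.05. With array weights 1 of each list was called, and without moderation of variances 0 and 2 (medians -0.033 and -0.002).

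Markers of the line and of other cells were read beside these groups. The renal developmental factors PAX8 and PAX2 had mean levels of 8.22 and 6.61 over the arrays, and the epithelial keratin gene KRT18 had 10.41. The 16 measured kidney epithelium markers together had a median level of 6.41, also below the 7.46 over all genes. Of 16 kidney epithelium markers EPCAM (0.38 ± 0.09) and CDH1 (0.32 ± 0.08) were higher with s18076, and the other 14 were not called. The median was -0.061, with 5 of 16 differences above 0. Neither EPCAM nor CDH1 was called on replicates 2 and 3 alone, and of the 6 fits without 1 array EPCAM was called in 2 and CDH1 in 1. Limma called 0 of 15 fibroblast markers, 0 of 12 blood cell markers and 0 of 12 markers of carcinoma lines, where 1, 2 and 0 had an unadjusted p under 0.05. With the replicate number or replicate 1 as a block 1 blood cell marker was called lower, and with the probe sets averaged 1 fibroblast marker was. Their median levels were 5.97, 6 and 6.54, against 7.46 over all genes.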

How the data were processed

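The series holds 12 Affymetrix arrays of HEK293T RNA in 4 groups of 3. The authors deposited linear intensity values per probe set, which the submitters' processing notes credit to RMA with affy 1.24.2. RMA subtracts background, sets all arrays to 1 distribution and summarises the probes of a set. A shift of the whole transcriptome is therefore not visible. Values were put on the log2 scale with no pseudocount. The platform annotation names 1 gene for 41091 of 54675 probe sets, several for 1801 and none for 11721, and 62 are controls. RefSeq's gene table held the Entrez ID for 41037 of the one-gene sets and changed 0 symbols. Each of 19775 genes was read from its brightest probe set by the mean of the 12 arrays, and 10523 genes had several. The position of the siRNAs on the messenger is not given in the sources used here.

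A model with 2 group means was fitted to the 6 arrays with limma 3.58.1 in R 4.3.3 (lmFit and eBayes, 4 residual degrees of freedom), with Benjamini-Hochberg adjustment over all genes. In simulated data on 19775 genes for this contrast, 65.7% of log2 changes of 0.5 were called, 98.5% of changes of 1 and 100% of changes of 2, and 6 of 182 calls were false. The simulated noise was independent between arrays and few genes were changed. The shared deviation of the replicate 1 arrays was not simulated, so these shares are not error rates of the real calls. The further probe sets were tested in 1 fit over all one-gene probe sets. Arrays give no read depth, and their number limits the precision. The 21 alternatives covered scaling, pseudocount, dim genes, probe sets, arrays, variance model, weights, replicate number, thresholds and each array left out.

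The comparison, the gene lists and the rule for named genes were chosen with earlier results of these data known. The rule names MED26, the 14 largest differences in each direction among called genes whose groups do not overlap, and for each list up to 3 called members with the largest difference, plus any member needed for a count of 5 or fewer. LOC, orf, FAM, KIAA and LINC names were passed over.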

Additional observations from a re-analysis of the deposited data

How the results depend on the processing

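The count of 1715 called genes was 1139 with every probe set tested on its own, 1012 without moderation of variances, 1032 on replicates 2 and 3 only, 2637 with a block for replicate 1 against replicates 2 and 3, 706 at an adjusted p under 0.01, 57 with a log2 difference of at least 1 required, and from 880 to 1392 with 1 array left out. It stayed within 1.5 times under the other alternatives. With the replicate number as a replicate block it was 1909. The numbers were not taken to pair the arrays, since the replicate 3 arrays correlated at 0.051 and s18075 replicate 2 correlated best with s18076 replicate 3 (0.211). In the 19 alternatives run for single genes (18 for some), which leave out both stricter thresholds, MED26 stayed lower with s18076 and lost its call with its probe sets averaged (-0.356). At -0.51 it is also under the required log2 difference of 1. In these alternatives 52 of 149 named genes kept their call each time. Of the values for single genes other than MED26, 2271 stayed on the same side of the threshold, 530 lost the call and 1 turned, TRIB1 at -0.001 in the mean of its probe sets. For each alternative the cause was not tested beyond what its construction fixes (fewer arrays or more tests). Of the counts for lists, 411 stayed within 1.5 times and 197 moved. Probe sets near the dim end of the array limit single genes such as the second further probe set of MED26.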

Other observations

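Gene families grouped by the first letters of their symbols, which were chosen after the values were seen, add values outside the lists. Over all genes 5.21% were called higher and 3.46% lower, and among the brightest 60% these shares were 8.12% and 5.2%. Of 48 measured ZBTB genes, transcription factors with a BTB domain and zinc fingers, 9 were called higher with s18076 (18.8%) and the other 39 were not called, with a median difference of 0.07. Without 1 array 5 to 8 ZBTB genes were higher, and on replicates 2 and 3 alone 4 were. Of 503 measured ZNF genes 36 were higher and 6 lower (median 0.044), and without 1 array 16 to 30 were higher and 2 to 5 lower. Of 50 MRPL genes, which encode mitochondrial ribosomal proteins, 2 were higher and 5 lower (median -0.049), and of 27 MRPS genes 1 was higher and 3 lower (median -0.112). Without 1 array the lower counts were 2 or 3 in each. Of 83 RAB genes, small GTPases of vesicle traffic, 8 were higher and 1 was lower (median 0.056), with 3 to 9 higher without 1 array. Of 388 SLC transporter genes 19 were higher and 20 lower (median -0.016), so that 10.1% of SLC genes were called, against 8.67% of all genes.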
